A study of Mus musculus with 378 samples.

Results

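The genes described here encode potassium channels and their partner subunits, whose mouse symbols start with Kcn. They were chosen by symbol, leaving out Kcnj5, Kcnj11 and Kcnq1ot1, which gave 82 of the 22180 genes in the deposited tables. The libraries came from polyadenylated RNA of whole pancreatic islets, 1 library per Diversity Outbred mouse; 190 mice were male and the rest, 49.7%, female. Diversity Outbred mice are an outbred stock, so each animal carries its own mix of founder genomes, and no gene was altered by design. All mice of both sexes had a diet high in fat and sugar, given in the labels as 45% fat, and no group on another diet was analysed here. Sex was the letter in the title, and mouse numbers were divided into 4 number bands of 100 numbers each, starting at 21. The labels do not say what a stretch of numbers stands for, and they give no age.

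Potassium channels let potassium leave the cell and so hold or restore the negative membrane potential. In the beta cell, glucose closes the ATP-sensitive potassium channel, the membrane depolarises, calcium enters and insulin is released; voltage-gated and calcium-activated potassium channels then repolarise the membrane. Alpha cells, which make glucagon, and delta cells, which make somatostatin, are also electrically active, and two-pore channels carry background potassium current in many cell types.

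Libraries held between 15.1 M and 68.8 M counts, with a median of 34.8 M. Band 4 was shallower, with a median of 23.99 M against 36.4 M to 37.2 M in the other bands. Between bands 4 and 1, 9 members differed by at least 2-fold, 14.1% of the 64 tested for sex against 9.19% of all genes tested, among them Kcnk12 (log2 difference 3.68), Kcnh7 (-1.30), Kcnh2 (1.13), Kcnj12 (1.06), Kcnk3 (1.03) and Kcnj4 (1.01). For that reason band was a term in the main fit and was removed before correlations. Markers of islet endocrine cells were present in every library: Gcg, the glucagon gene, Sst, the somatostatin gene (mean 1388 CPM, counts scaled to a common library total), and both insulin genes had no library at 0. Exocrine RNA was present too, with a mean of 963 CPM for Ctrb1, a digestive protease gene of acinar cells. In whole islets, fewer cells of a type and less RNA per cell cannot be told apart.

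Of the 82 members, 53 had a mean of 1 CPM or more and are called expressed, 64.6%, against 64.7% of all genes in the table. The lowest expressed mean was 1.08 CPM and the highest mean below the limit was 0.971 CPM (Kcnk13). Expression was spread over all main channel families, which were assigned by symbol alone. It covered 21 of 29 voltage-gated members, 7 of 12 two-pore members, 6 of 11 inward rectifiers, 5 of 8 calcium- or sodium-activated members, 3 of 5 silent subunits and 11 of 14 accessory subunits. None of the 3 remaining members (Kcnrg, Kcnab3os and Kcnmb4os2) reached the limit. The voltage-gated group held 402.3 CPM in total, the accessory group 208.6 CPM, the two-pore group 134.8 CPM and the inward rectifiers 28.2 CPM. That last sum leaves out Kcnj11, the pore of the ATP-sensitive channel. Among the voltage-gated members, Kcna1 at 0.113 CPM, Kcna3 at 0.120 CPM and Kcna4 at 0.149 CPM were below the limit, as were Kcna6 and Kcna7. Kcna2 at 4.63 CPM and Kcna5 at 1.08 CPM were above it. The lowest member was Kcng2 at 0.0307 CPM, with 41.3% of libraries at 0. In the shallowest library, 3 counts, the limit that a count of 0 allows, are 0.198 CPM, and at the median depth they are 0.0862 CPM. These limits cover counting error only.

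Levels were compared between genes only per kilobase of the longest annotated transcript (CPM per kb). The highest level was that of Kcnmb2, an accessory beta subunit of the large-conductance calcium-activated channel, at 29.2 ± 7.76 CPM per kb (SD over all mice). The two-pore channel Kcnk16, known as TALK-1 and known for its restriction to pancreas, followed at 23.6 ± 9.06 CPM per kb. Kcnk1, another two-pore channel, stood at 19.4 ± 6.57 CPM per kb. These were followed by a calcium-binding partner of Kv4 channels and by channels of the ether-a-go-go class, which open on depolarisation. Kcnip1, the Kv4 partner, had 18.8 ± 5.88 CPM per kb. Kcnh6 had 15.3 ± 4.44, Kcnh1 had 12.3 ± 4.74 and Kcnh2 had 11.6 ± 5.13 CPM per kb. No neighbours among these 7 differed by more than the larger of their SDs. Within mice, Kcnmb2 was above Kcnk16 in 71.2% of animals, whereas Kcnk1 was above Kcnip1 in 51.1%. The pore gene whose channel Kcnmb2 accompanies, Kcnma1, was at 1.499 ± 0.346 CPM per kb.

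**Figure D1:**
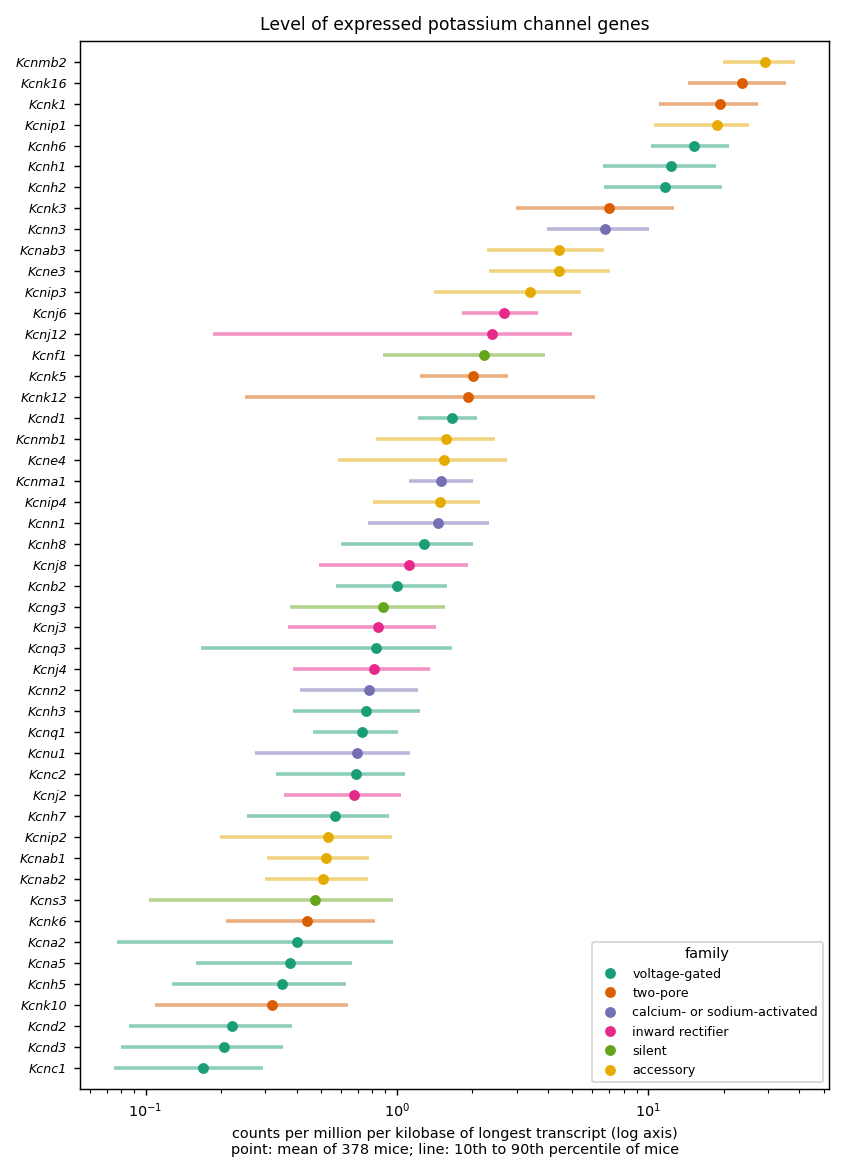
Level of expressed members in CPM per kb of longest transcript (log axis), coloured by family. Points are means over all mice and lines run from the 10th to the 90th percentile of mice, with sex and number band left in. Levels run from 29.2 for Kcnmb2 to 0.169 for Kcnc1, and the lines of Kcnj12 and Kcnk12 are the longest. For Kcnk12 the SD of log2 CPM was 1.72 with sex alone removed and 0.654 with sex and band removed.

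In CPM, Kcnmb2 ran from 25.4 through a median of 82.4 to 185.5 in females and from 40.7 through 86.2 to 185.9 in males. Kcnk16 ran from 18.6 through 41.6 to 94.5 CPM in females and from 24.8 through 52.5 to 144.5 CPM in males. Kcnk1 ran from 10.98 through 41.3 to 76.6 CPM in females and from 11.2 through 46.7 to 95.3 CPM in males. The sexes overlapped broadly for each of these genes, but the upper end of the Kcnk16 and Kcnk1 ranges was reached by males only. Kcnip1 ran from 1.05 through 77.7 to 120.6 CPM in females and from 1.57 through 85.8 to 138.2 CPM in males, so a few mice had almost none of a gene that was abundant in the rest. Female mice had a Kcnh6 median of 46.6 CPM (21.5 to 95.3) and male mice one of 52.7 CPM (19.6 to 129.5). For Kcnh2 the median was 38 CPM among females (19.2 to 111.3) and 43.97 CPM among males (19.3 to 115.8).

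The expressed members differed between mice more than most genes did. Spread was the SD of log2 CPM after removal of sex and number band, and its median was 0.598 over the 53 members against 0.286 over the 14354 genes of mean CPM 1 or more. The SD was above that of the median gene in 51 of the 53. This SD also holds the counting error of low genes. On the deposited variance-stabilised values the medians were 0.378 and 0.224, with 52 of the 53 above the median gene. Relative to edgeR's dispersion trend at the same abundance, 47.2% of the members lay above the trend against 18.7% of all genes. Kcnma1 (SD 0.257), Kcnd1 (0.298) and Kcnmb2 (0.319) were among the steadiest.

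Kcnj12, an inward rectifier, had the widest spread, with an SD of 1.71. It ran from 0 through a median of 5.15 to 23.1 CPM in females and from 0.0286 through 4.82 to 38.2 CPM in males. Levels were below 1 CPM in 67 mice, and the 90th percentile was 26.7 times the 10th. Both sexes ran from near 0 to at least 23.1 CPM, and the levels above that were in males. Kcna2, a Kv1 delayed rectifier, had an SD of 1.31, with 0.890 CPM at the 10th percentile and 11.2 CPM at the 90th. Kcnq3, a subunit of the M-type channel, had an SD of 1.22, with 1.97 and 19.6 CPM at those percentiles. Kcns3, a silent subunit that modifies other voltage-gated channels, had an SD of 1.18 and was below 1 CPM in 55.6% of mice. Kcnk10, a two-pore channel opened by stretch and lipids, had an SD of 0.927. Kcnh5 (0.896), Kcne4 (0.852), Kcnip1 (0.822) and Kcnf1 (0.801) were also wide by SD. In CPM, the 90th percentile of Kcnip1 was 2.39 times the 10th, against 4.955 for Kcnh5, 4.72 for Kcne4 and 4.42 for Kcnf1. On the variance-stabilised values the SDs were smaller and their order differed: 0.912 for Kcnj12, 0.864 for Kcnq3, 0.776 for Kcna2 and 0.520 for Kcns3.

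**Figure D2:**
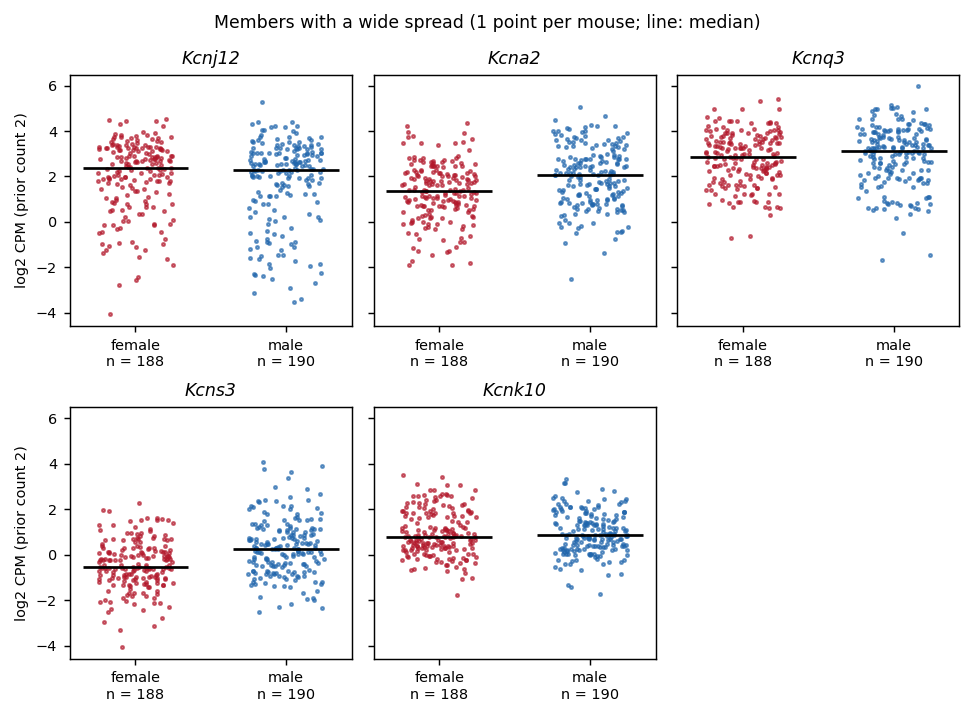
Log2 CPM (prior count 2) of 5 members with a wide spread, 1 point per mouse, females and males apart, with the median as a line. Kcnj12 reaches from about the detection floor to above 20 CPM in both sexes; for Kcns3 and Kcna2 the male medians sit higher.

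The spread itself was compared between sexes with limma on absolute deviations from the median of each sex and band. It was wider in males for 2 of the 53 members, against a background of 4.90% of all 14354 genes, and wider in females for 0, against 0.0906%. At an unadjusted p under 0.05, 10 members (18.9%) were wider in males and 0 in females, against 17.2% and 1.5% of all genes. The SD of Kcnk3, a two-pore background channel, was 0.755 in males and 0.453 in females. That of Kcnj2, the Kir2.1 inward rectifier, was 0.693 in males and 0.482 in females.

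Levels were then compared between females and males. The filter on low counts kept 64 of the 82 members, the 53 expressed ones and 11 lower ones. With edgeR's quasi-likelihood test and an adjusted p under 0.05 over all 16927 genes tested, 21 members were higher in females and 23 lower. These are 32.8% and 35.9% of the tested members, against 23% of all genes tested higher in females and 27.6% lower. The median log2 difference (female minus male) was -0.01 over the members and -0.01 over all genes. Among the called members, 29 differed by at least 1.2-fold, 45.3% of those tested, and 11.2% of all genes tested were called at that size. Of the 44 called members, 40 had the same sign in all 4 number bands; taken band by band, 7 were called in all 4 and 4 in 0 bands. No member (0) had a sex difference that varied with band by edgeR's interaction test, against 1.12% of all genes; 4 did at an unadjusted p under 0.05, 6.25% of those tested against 16.4% of all genes, and the fit without a filter on low counts also called 0.

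Voltage-gated genes were called in both directions, 11 of 23 tested higher and 8 lower in females. Kcna5, the Kv1.5 channel, ran from 0.210 through a median of 1.29 to 3.84 CPM in females and from 0.139 through 0.724 to 2.26 CPM in males. Females lay higher, with broad overlap. Its difference was 0.76 ± 0.068 on the log2 scale (SE), 1.69-fold, with an adjusted p of 7e-23 by edgeR. Kcnq3 did not pass (-0.22 ± 0.12, edgeR adjusted p = 0.10). The Kv4 genes Kcnd2 and Kcnd3, which carry fast transient current, were both higher in females, by 0.52 ± 0.081 and 0.52 ± 0.073. Kcnd1, the third Kv4 gene, did not pass (0.04 ± 0.031). Kcnc4, a Kv3 gene whose mean over all mice was 0.490 CPM, had the largest difference upwards, 0.91 ± 0.087. Kcnc1 (0.32), Kcnh7 (0.27) and Kcnc2 (0.27) were also higher.

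In the other direction, Kcnh1 ran from 13.1 through a median of 72.5 to 153.6 CPM in females and from 35.96 through 97.7 to 230.2 CPM in males. Females lay lower, again with broad overlap. The log2 difference was -0.51 ± 0.052, 1.42-fold, with an edgeR adjusted p of 5.9e-18 and a call in each of the 4 bands taken alone. Kcna2 was lower in females by 1.64-fold (-0.72 ± 0.13); its deposited counts were exactly whole numbers in 59.5% of libraries. Kcnh5 (-0.40), Kcnb2 (-0.30), Kcnh6 (-0.19), Kcnh3 (-0.16) and Kcnh2 (-0.12) were also lower. Without the band term Kcnh3 and Kcnh2 did not pass (edgeR adjusted p = 0.12 and 0.15). Kcnh8 and Kcnq1 did not pass.

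Among two-pore channels, 2 of 9 tested were higher in females and 5 lower. Kcnk3 was higher by 0.42 ± 0.061, and Kcnk16 was lower by -0.34 ± 0.050 (edgeR adjusted p = 1e-09). Kcnk12 (-0.24), Kcnk6 (-0.24) and Kcnk5 (-0.11) were lower, but each of these calls was lost in another fit. Kcnk12 was at -0.16 without the band term (edgeR adjusted p = 0.52). Kcnk6 was at -0.17 by limma-voom (adjusted p = 0.053). Kcnk5 had an edgeR adjusted p of 0.057 with upper quartile scaling and of 0.24 with band 4 left out (-0.08). Kcnk1 (-0.10 ± 0.053) and Kcnk10 (0.06 ± 0.099) did not pass. Of the calcium- or sodium-activated genes, 4 of 7 were lower, among them the small-conductance channel genes Kcnn3 (-0.41 ± 0.052, with medians of 43.6 CPM for females and 59.6 for males) and Kcnn2 (-0.18), and Kcnma1 (-0.10). Kcnn4, the intermediate-conductance channel gene with a mean of 0.728 CPM, was lower by -0.45 ± 0.083. Kcnn1 was higher (0.18), and Kcnu1, placed in this family by its symbol and not by how it opens, did not pass (-0.06).

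Inward rectifiers were called 3 times, with 2 of 8 tested higher and 1 lower. The G-protein-gated gene Kcnj3 (0.36) and the Kir2 gene Kcnj4 (0.35) were higher. Kcnj2, Kcnj6, Kcnj8 and Kcnj12 did not pass; for Kcnj12 the difference was 0.04 ± 0.15. Among silent subunits, Kcns3 ran from 0 through 0.632 to 4.75 CPM in females and from 0.115 through 1.15 to 17.0 CPM in males. It had the largest difference downwards, -1.02 ± 0.13, 2.03-fold (edgeR adjusted p = 2.9e-12). Kcng3 was higher (0.29) and Kcnf1 did not pass (0.05).

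Accessory subunits were called 3 times in each direction among 12 tested. Kcnip3, a calcium-binding Kv4 partner, ran from 2.18 through 10.7 to 26.1 CPM in females and from 1.02 through 7.08 to 18.5 CPM in males, a difference of 0.60 ± 0.067 with a call in each of the 4 bands. Kcnip2, another Kv4 partner, went the other way, with medians of 1.13 CPM for females and 1.68 for males and a difference of -0.65 ± 0.084. Kcne3 (-0.44) and Kcnab3 (-0.38) were lower, and Kcnab1 was higher (0.24). The difference was not past the threshold for Kcnip1, Kcnip4, Kcnmb1, Kcnmb2, Kcnab2 and Kcne4.

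**Figure D3:**
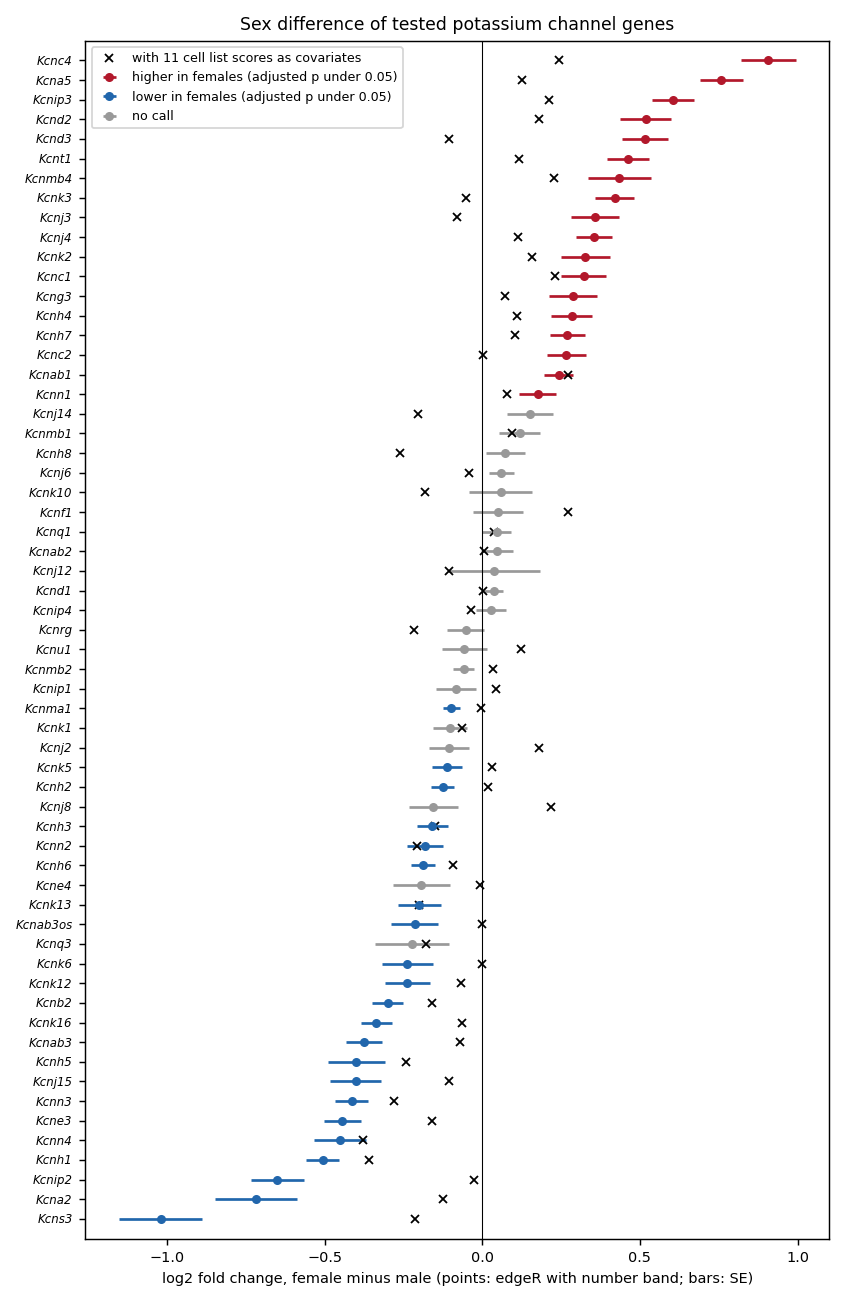
Log2 difference, female minus male, of tested members (points with SE bars, edgeR with number band), and the same difference with the 11 cell list scores as covariates (crosses). Red members were higher and blue members lower in females; many crosses lie nearer to 0 than their points, for example Kcnip2 at -0.03 against -0.65.

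Markers of cell types differed between the sexes as well. All 7 alpha markers and all 6 delta markers tested were higher in females, whereas 9 of 12 beta, 11 of 12 endothelial and 7 of 8 pericyte markers were lower; 0 of 11 acinar markers passed in either direction. When scores of 11 cell type gene lists were added to the model, 13 members were called, 20.3% of those tested against 18.1% of all genes, and 9 of them were called in the same direction without the scores. Kcnh1 (-0.36, edgeR adjusted p = 5.8e-06), Kcnn3 (-0.28), Kcnn4 (-0.38) and Kcnab1 (0.27) stayed past the threshold. Kcna5 was then at 0.12 (edgeR adjusted p = 0.17), Kcnd2 at 0.18 (0.096), Kcnk16 at -0.06 (0.46) and Kcns3 at -0.21 (0.32). Kcnd3 and Kcnk3 changed sign, to -0.11 and -0.05. The part of cell makeup in the sex differences was not tested beyond this fit.

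Other channel genes were counted in the same fit, from lists fixed by function. Of 8 potassium channel partners tested, 2 were higher in females and 3 lower. Dpp6 (0.27) and Dpp10 (0.29), Kv4 partners like the Kcnip genes, were higher, and Abcc9, a sulfonylurea receptor of vessels and muscle, was lower (-0.27). Abcc8, the sulfonylurea receptor of the beta cell, did not pass (-0.06 ± 0.029). Of 14 calcium channel genes 5 were higher and 2 lower, led by Cacna2d3 (0.75), Cacna1e (0.56) and Cacna1h (0.40). Of 7 sodium channel genes 0 were higher and 2 lower, Scn3a (-0.27) and Scn8a (-0.05). Of 9 HCN and TRP genes 3 were higher and 3 lower, with Trpm3 (-0.41), Hcn2 (-0.16) and Trpm5 (0.26) at the smallest adjusted p. Of 11 chloride and volume channel genes 3 were higher and 4 lower, with Lrrc8b (0.34), Lrrc8d (-0.14) and Clcn4 (0.09) first.

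To ask which cells' genes each member followed from mouse to mouse, its residual log2 CPM was correlated with the score of each cell list, the mean z-score of the list's genes. A member was assigned to the list with the highest Pearson r if that r was 0.3 or more. By this rule 7 members were closest to beta genes, 5 to delta, 4 to alpha, 5 to endothelial, 1 to fibroblast and 1 to pericyte genes, and 30 to none. Among genes outside the lists, 6.61% were closest to beta, 2.40% to delta, 3.43% to alpha, 3.18% to endothelial, 1.73% to fibroblast and 3.51% to pericyte genes, and 74.5% to none. In all, 583 correlations were computed and adjusted together. The permutation p of every assignment named below was 1e-05 for Pearson's r and, apart from Kcns3 (2e-05), for Spearman's rho; 1e-05 is the smallest that 100000 shuffles of mice within sex and band can give, and the adjusted values were 5.72e-05 to 0.000136. Leaving out the 2 mice farthest from the median of the score moved no r of an assigned member by more than 0.0258. The lymphocyte score rested on Lck and Cd79a alone, while Cd3e had a mean of 0.0373 CPM, so it does not mark lymphocytes, and the Schwann score rested on 2 genes.

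**Figure D4:**
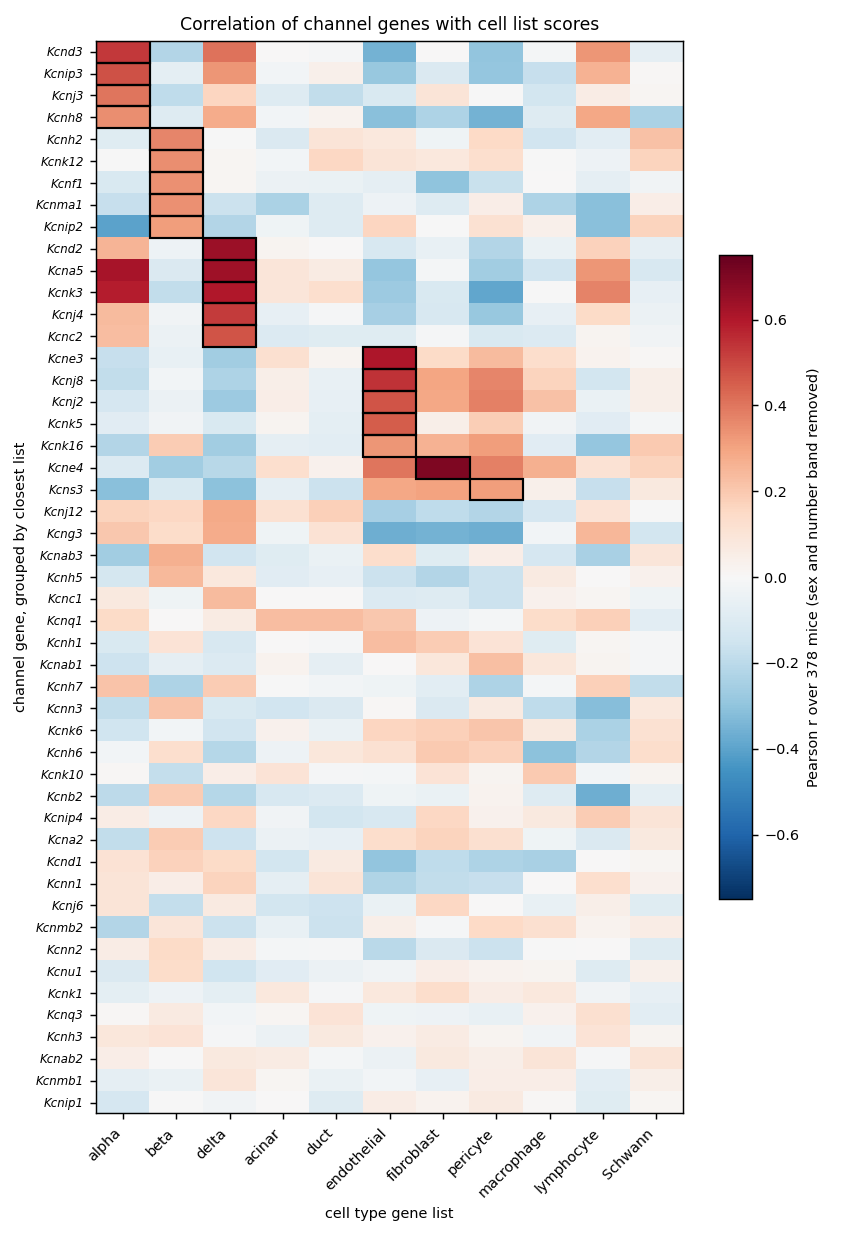
Pearson r over all mice between expressed members (rows, grouped by closest list) and each of 11 cell list scores (columns), with sex and number band removed. Boxes mark the closest list where r was 0.3 or more; Kcna5 and Kcnk3 are dark red for both alpha and delta genes, and no row below the last box reaches an r of 0.3.

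Delta genes had 5 followers. Kcnd2 had r = 0.64 with the delta score (rho = 0.62; 0.27 to 0.73 within the 8 groups of sex and band), and r = 0.64 was also found for Kcna5 (rho = 0.64; 0.39 to 0.77). Kcnk3 had r = 0.60 (rho = 0.51), Kcnj4 r = 0.52 (rho = 0.54) and Kcnc2 r = 0.47 (rho = 0.49). The alpha and delta scores were themselves correlated across these mice (r = 0.65), and Kcna5 and Kcnk3 had r = 0.62 and r = 0.59 with the alpha score, so their order between the lists is not resolved. With all 11 scores in 1 limma fit, a positive slope on delta genes was called for 9 of the 53 members, against 3.14% of genes outside the lists. The slope was 0.67 ± 0.041 log2 units per SD of the score (SE) for Kcnd2, 0.38 ± 0.039 for Kcnc2, 0.32 ± 0.033 for Kcnj4, 0.27 ± 0.032 for Kcna5 and 0.20 ± 0.033 for Kcnk3. Kcnj12, Kcnc1, Kcnip4 and Kcnmb1 were the others.

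The sequences upstream of 5 members that followed a non-beta list are printed so that their make-up can be compared. Each is the 250 bases before the RefSeq gene start on GRCm38.p6, 5′ to 3′ on the gene's strand, and 61 of the 82 members had an entry. Capitals mark matches on either strand to 4 short motifs. These were the TATA box, searched as TATAAA, the CCAAT box, searched by those letters, the Sp1-type box, searched as GGGCGG, and part of the cyclic AMP response element, searched as TGACG. No motif overlapped another kind of motif, and a pair of Sp1-type matches adjoin in Kcnj4.
Kcnd2: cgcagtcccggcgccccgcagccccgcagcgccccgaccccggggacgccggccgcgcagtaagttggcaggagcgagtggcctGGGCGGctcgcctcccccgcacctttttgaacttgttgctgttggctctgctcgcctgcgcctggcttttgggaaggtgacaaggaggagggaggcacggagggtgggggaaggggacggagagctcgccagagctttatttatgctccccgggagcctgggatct
Kcnj4: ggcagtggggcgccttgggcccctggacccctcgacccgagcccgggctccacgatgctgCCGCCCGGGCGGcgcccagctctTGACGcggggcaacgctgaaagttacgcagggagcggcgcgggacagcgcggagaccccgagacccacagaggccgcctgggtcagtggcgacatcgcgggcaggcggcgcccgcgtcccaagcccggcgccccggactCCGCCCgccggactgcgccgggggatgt
Kcna5: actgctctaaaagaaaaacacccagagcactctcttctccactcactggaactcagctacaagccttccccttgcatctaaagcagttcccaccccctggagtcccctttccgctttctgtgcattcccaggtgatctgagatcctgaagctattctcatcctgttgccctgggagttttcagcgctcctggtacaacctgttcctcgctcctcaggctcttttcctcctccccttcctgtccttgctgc
Kcnj8: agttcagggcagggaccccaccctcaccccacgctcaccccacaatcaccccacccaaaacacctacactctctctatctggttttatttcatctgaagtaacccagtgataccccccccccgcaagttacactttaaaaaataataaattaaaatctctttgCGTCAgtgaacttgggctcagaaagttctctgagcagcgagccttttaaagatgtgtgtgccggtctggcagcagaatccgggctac
Kcne4: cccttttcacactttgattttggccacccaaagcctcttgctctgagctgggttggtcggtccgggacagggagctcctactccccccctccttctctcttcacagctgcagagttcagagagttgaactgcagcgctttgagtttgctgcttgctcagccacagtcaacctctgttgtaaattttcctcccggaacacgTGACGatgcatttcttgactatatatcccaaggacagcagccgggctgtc

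These windows lie at chr6:21215096-21215345 (plus strand, Kcnd2), chr15:79505242-79505491 (minus, Kcnj4), chr6:126535556-126535805 (minus, Kcna5), chr6:142571615-142571864 (minus, Kcnj8) and chr1:78816661-78816910 (plus, Kcne4). By the deposited coordinates Kcne4 starts at 78816758, inside its window. The rest of that window, with its marked match, therefore lies within the gene as annotated there. The 3 delta followers printed here did not share one make-up, and the windows of Kcnk3 and Kcnc2 were not compared. Kcnj4 had 35 CpG dinucleotides and 77.2% G and C with 3 matches to the Sp1-type box, Kcnd2 had 22 CpG and 68.8% with 1 match, and Kcna5 had 3 CpG and 53.2% with 0. Kcnj8 had 6 CpG and Kcne4 had 7, and each held 1 match to the response element part, as did Kcnj4. Among all 32851 windows of this length, the median was 6 CpG and 52.4% G and C; 32.7% held the Sp1-type box, 17.8% the response element part, 33.9% the CCAAT box and 12.4% the TATA box. None of the 5 windows held the CCAAT or the TATA box. These matches are letters in a sequence and were not measured as binding sites.

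Alpha genes were closest for 4 members. Kcnd3 had r = 0.53 (rho = 0.49), Kcnip3, which can bind the channel that Kcnd3 encodes, r = 0.48 (rho = 0.43), Kcnj3 r = 0.40 (rho = 0.44) and Kcnh8 r = 0.35 (rho = 0.32). In the joint fit 7 members had a called positive slope on alpha genes, against 10.9% of genes outside the lists, among them Kcnj3 (0.40 ± 0.046), Kcnip3 (0.30 ± 0.043) and Kcnd3 (0.26 ± 0.040). Kcnj3 shares 31.1% of its exon bases with an annotated gene on the other strand, its deposited counts were exactly whole numbers in 4.23% of libraries, and whether counting used strand is not stated, so its values are uncertain. Kcnip2 was the member most negatively related to the alpha score (r = -0.40).

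Beta genes were closest for 7 members, all at modest r. Among them were Kcnh2 (r = 0.37, rho = 0.37) and Kcnk12 (r = 0.35, rho = 0.32), then Kcnf1 and Kcnma1 (both r = 0.34) and Kcnip2 (r = 0.32). The beta markers hung together less than the other endocrine lists, with a median r of 0.40 between a marker and the rest of its list, against 0.84 for alpha and 0.79 for delta markers. In the joint fit 19 members had a called positive slope on beta genes, against 25.3% of genes outside the lists. Slopes were 0.27 ± 0.035 for Kcnk12, 0.23 ± 0.043 for Kcnf1 and 0.13 ± 0.019 for Kcnh2. Kcnk12 and Kcnh2 are among the members that differed most between bands 4 and 1, and within the 8 groups of sex and band their r ran from -0.11 to 0.52 and from 0.0019 to 0.51.

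Endothelial genes were closest for 5 members. Kcne3, a small partner subunit of Kcnq1 and other channels, had r = 0.61 (rho = 0.58; 0.45 to 0.74 within the 8 groups) and a joint slope of 0.36 ± 0.027. Kcnj8, the vascular pore of the ATP-sensitive channel, had r = 0.54 (rho = 0.52) and a slope of 0.34 ± 0.038. Kcnj2 had r = 0.47 and Kcnk5 r = 0.45. Kcnk16 had r = 0.33 but rho = 0.28, and its r ran from 0.076 to 0.53 within the 8 groups. Kcnj8 also had an r above 0.3 with pericyte genes, whose score was correlated with the endothelial score (r = 0.52). Kcne4, another small partner subunit, followed fibroblast genes more closely than any member followed any list (r = 0.70, rho = 0.67; 0.61 to 0.76 within the 8 groups), with a slope of 0.52 ± 0.034. Kcns3 was closest to pericyte genes (r = 0.31, rho = 0.23), but this ran from -0.11 to 0.49 within groups and its joint slope on them was 0.06 ± 0.073.

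The 30 members closest to no list included 5 of the 8 highest per kb. Among them were Kcnmb2, Kcnk1, Kcnip1, Kcnh6, Kcnh1, Kcnn3, Kcnab3, Kcnj6, Kcnj12, Kcnd1, Kcnmb1, Kcnip4, Kcnn1, Kcnb2, Kcng3, Kcnq3, Kcnn2, Kcnh3, Kcnq1, Kcnu1, Kcnh7, Kcnab1, Kcnab2, Kcnk6, Kcna2, Kcnh5, Kcnk10 and Kcnc1. Kcnip1 had no r above 0.0650 with any list, and Kcnk1 none above 0.134. An r under 0.3 does not show in which cells a gene is expressed.

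Members were also correlated with each other, over 1378 pairs, with a median absolute r of 0.0902 and 6 pairs at 0.5 or more. The pair ranked first was Kcnip1 and Kcnmb1, the latter another subunit of the large-conductance channel. In 8 mice, 4 of them female and spread over all 4 bands, both genes were below 0.25 times their medians: Kcnip1 was at 1.05 to 11.9 CPM and Kcnmb1 at 0.301 to 1.47 CPM. Only 1 further mouse was that low for Kcnmb1 and 0 for Kcnip1. Over all mice the 2 genes had r = 0.73 (rho = 0.56, permutation p = 1e-05 for both, the smallest these can give). In the other 97.9% of mice r was 0.58 (rho = 0.53), and in the 8 mice it was 0.71 (rho = 0.81). Both sets were formed from the values of these same genes, so these 2 r only describe the sets. Kcnmb1 (chr11:33963013-33973641, plus strand) lies wholly inside Kcnip1 (chr11:33629339-33993152, minus strand), by the deposited coordinates on GRCm38. Their annotated exons share 0 bases, but without a statement on strand, reads from unspliced Kcnip1 RNA and from Kcnmb1 cannot be told apart.

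The next pairs had no such overlap. They were Kcnk12 and Kcnh2 (r = 0.54, rho = 0.53; 0.075 to 0.74 within groups), Kcnk3 and Kcnd3 (r = 0.54, rho = 0.51), Kcnj2 and Kcnj8 (r = 0.53, rho = 0.48) and Kcnk16 and Kcnh6 (r = 0.53, rho = 0.51; 0.39 to 0.71 within groups). All had a permutation p of 1e-05 and an adjusted p of 8.72e-05 over the 1378 pairs for r. The most negative pairs were Kcng3 and Kcnk16 (r = -0.48) and Kcnh1 and Kcnn1 (r = -0.46). Kcnk5 and Kcnk16, which lie near each other on chromosome 14, had r = 0.29.

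**Figure D5:**
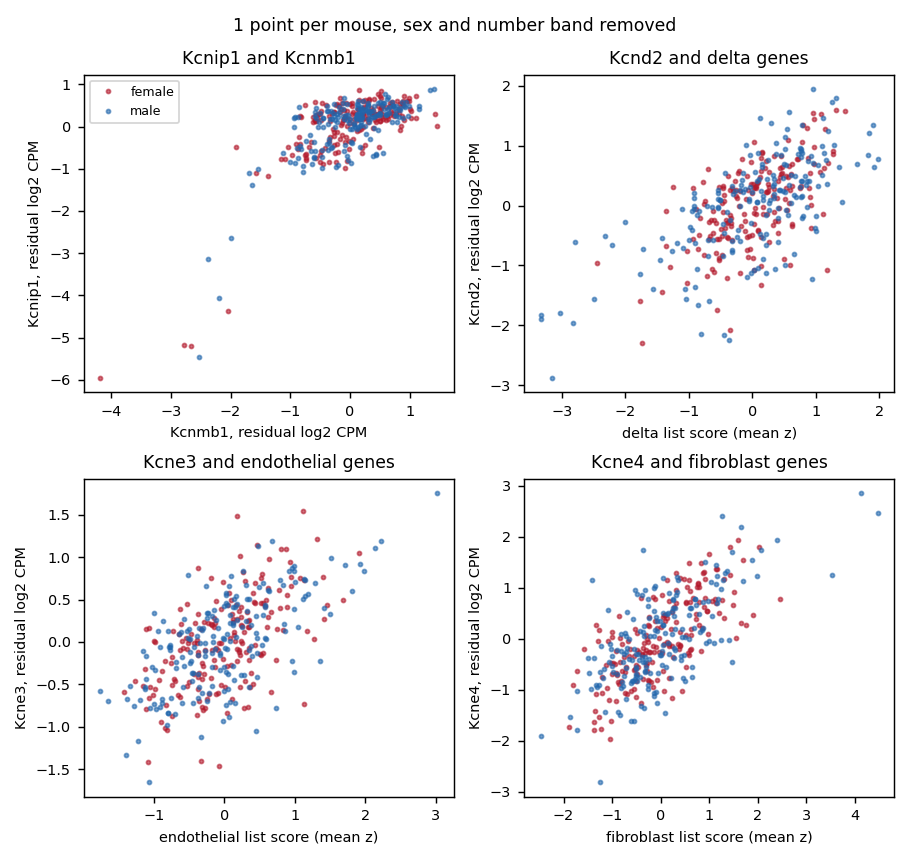
Residual log2 CPM of 4 members, 1 point per mouse with sex and number band removed, against Kcnmb1 or against the score of a cell list. The 8 mice low in both Kcnip1 and Kcnmb1 form a separate tail at the lower left of the first panel; the other 3 panels show 1 continuous cloud each, with r of 0.64 for Kcnd2, 0.61 for Kcne3 and 0.70 for Kcne4.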

How the data were processed

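Judged by their values, the deposited counts are expected counts per gene, unscaled, and the second deposited table is on a variance-stabilised scale close to log2. A deposited gene table gives starts and ends in megabases. The submitters' processing notes name the build GRCm38 and the tool DESeq2; sources used here give no aligner, counter or use of strand. All 82 members overlapped their GENCODE M21 entry on the same strand, 60 of them with identical coordinates.

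Counts were rounded to whole numbers. The main sex comparison (female minus male) was an edgeR 4.0.16 quasi-likelihood F test in R 4.3.3 with number band as a term, after TMM scaling and filterByExpr by sex, with Benjamini-Hochberg adjustment over 16927 genes and a threshold of 0.05. Spread, joint slopes on the 11 cell list scores and slopes by sex used limma 3.58.1 on log2 CPM with a prior count of 2. CPM used TMM-scaled library totals. Correlations used NumPy 2.4.6, and SciPy 1.17.1 gave the ranks. Alternatives included DESeq2 1.42.0.

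On simulated counts for the sex comparison over 16927 genes, 42% of 50 genes made to differ 1.1-fold and 94% of 50 made to differ 1.5-fold were found.

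Members and lists were chosen with earlier results of these data known. Each mouse gave 1 library. Expressed members are named, with full values for those among the 8 highest per kb, the 5 largest sex differences per direction, the 6 widest spreads, up to 4 per cell list and the 5 closest pairs; some members are counted but not reported here by name.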

Additional observations from a re-analysis of the deposited data

Results flagged for a closer look

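For 4 members the slope on the closest list differed between the sexes by a limma interaction test with an adjusted p under 0.05 over all genes. The same test called 22.2% of genes outside the lists for the alpha score and 19.5% for the delta score, so such a difference was common. Kcnj3 rose by 0.49 log2 units per SD of the alpha score in females and by 0.16 in males, a difference of 0.33 ± 0.069 (SE; limma adjusted p = 0.000136). Kcnk3 did the reverse on the delta score, with slopes of 0.19 in females and 0.45 in males and a difference of -0.27 ± 0.054 (limma adjusted p = 0.000107). Kcnc2 had delta slopes of 0.41 in females and 0.24 in males, a difference of 0.17 ± 0.061. Kcnj4 had delta slopes of 0.38 in females and 0.24 in males, a difference of 0.14 ± 0.051.

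Mouse-to-mouse spread was wider in males for 2 of the 53 expressed members, a share no larger than the 4.90% of all genes by the same test. The SD of Kcnk3 was 0.755 in males and 0.453 in females, and that of Kcnj2 was 0.693 in males and 0.482 in females. The causes of these differences were not tested.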

How the results depend on the processing

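The counts of members higher or lower in females, 21 and 23, changed by over 1.5 times where single bands or more covariates entered. Band 1 alone called 8 higher and 11 lower, band 2 alone 13 and 14, band 3 alone 9 and 10, and band 4 alone 11 lower. With the 11 cell list scores as covariates, 6 were higher and 7 lower. In that fit the differences that changed sign, with a call in either fit, included Kcnh2 (0.019), Kcnd3 (-0.11), Kcnj3 (-0.080), Kcnh8 (-0.26), Kcnk3 (-0.053), Kcnj8 (0.22) and Kcnk5 (0.032). Of these, Kcnh8 and Kcnj8 were called with the scores (edgeR adjusted p = 0.0044 and 0.048) but not without them. The others named were called without the scores but not with them. Kcnj3 was at -0.0052 in band 4 alone and Kcnk5 at 0.078 in band 1 alone. Of the 44 calls, DESeq2 with the band term shared 44 and limma-voom 43, without Kcnk6. Of the 16 members closest to alpha, beta or delta genes, 5 remained at an r threshold of 0.5. For other cell types 7 became 12 at a threshold of 0.2 and 3 at 0.5. Those closest to no list went from 30 to 17 at 0.2. With sex alone removed, 17 of the 23 members assigned to a list kept it. In females alone and in males alone, 19 did. The 5 members closest to delta genes became 3 with sex alone removed, 4 in females alone and 8 in males alone. With the deposited vst values, 4 members were wider in males, 5 slopes differed by sex and Kcna5 moved from delta to alpha genes; the slope alternative was chosen after seeing the data. Causes were not tested. No paired analysis was possible because each mouse number belongs to 1 mouse of 1 sex. Depth limits members below about 0.198 CPM in the shallowest library.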
